A study of Gallus gallus with 8 samples.

Results

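The genes described here are the 216 chick genes whose messenger RNA was at least 4 times higher in ungrafted than in node-grafted area opaca and also at least 4 times higher in non-neural head ectoderm than in neural plate. They were taken from a table of 17329 genes as counts scaled to a library total of 1000000 (CPM), with 5 CPM or more required in both of the higher libraries and a count of 0 set to 3 counts. The area opaca is the extraembryonic rim of the chick blastoderm. The node-grafted library held the area opaca epiblast that lay against a Hensen's node grafted into HH4 embryos, collected 5 hours later, and the ungrafted library held area opaca from the opposite side of those embryos at that time. The non-neural, non-placodal head ectoderm, the neural plate, and the anterior and the posterior preplacodal region were dissected from HH6/7 embryos. The central and the anterior epiblast came from pre-streak embryos of stage EGKXII/XIII. Each of the 8 groups was represented by 1 library, so no difference has a replicate check and no test between groups was possible. The intervals given are exact 95% intervals of a ratio of CPM and cover counting error only. In tissue libraries of this kind, fewer cells of a type and less RNA per cell cannot be told apart.

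Ectoderm of the early chick embryo becomes neural plate near the organizer, surface ectoderm far from it, and preplacodal ectoderm, the source of cranial sense organs and ganglia, along the border between them. Signals of the BMP and WNT families are known to favour surface ectoderm, through factors such as GATA2, MSX, DLX and grainyhead-like proteins, and the node secretes antagonists of BMP. Surface ectoderm and the area opaca epiblast are also transporting epithelia, with keratins, tight junctions, gap junctions and ion and nutrient carriers.

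Library totals ran from 13053810 counts in the node-grafted area opaca to 138666339 in the posterior preplacodal region, so that 3 counts stood for 0.0216 to 0.230 CPM. By the labels, 5 libraries came from 1 laboratory and the non-neural ectoderm and both preplacodal libraries from another. The comparison of non-neural ectoderm with neural plate crosses laboratories, and tissue and laboratory cannot be told apart in it, whereas both area opaca libraries share a laboratory, as do both pre-streak and both preplacodal libraries. The labels of the libraries that chose the genes were checked against a list of 26 neural plate genes. The summed level of these 26 genes was 67.2 CPM in the ungrafted and 448 CPM in the node-grafted area opaca, 150 CPM in the non-neural ectoderm and 1668 CPM in the neural plate. Before the streak it was 166 CPM in the central and 495 CPM in the anterior epiblast. There 6 of 6 comparable genes of the list were at least 2-fold lower centrally, against 6.09% of all genes. The pre-streak labels themselves were not checked against a list. Of the 216 genes, 209 had Ensembl and 7 RefSeq identifiers. In 5 pairs both identifiers had the same counts within 5% or 3 counts (CDXB and CDX4, G0S2 and GOS2, the keratin LOC100858439 and ENSGALG00000003690, SSPO and ENSGALG00000004919, TRPM7 and gga-mir-6596), which leaves 211 separate profiles. The count under the microRNA name cannot be told apart from that of TRPM7 and is not a measure of the mature microRNA.

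The criterion on the area opaca was met by 305 genes, 3.23% of the 9437 genes with 5 CPM in either of those libraries, and the criterion on the head ectoderm by 624 genes, 6.11% of 10206. The 216 genes that met both were 70.8% of the first list, 34.6% of the second and 2.46% of the 8779 genes with 5 CPM in both higher libraries. The genes were chosen by these measured levels in 4 libraries, which are therefore given as a description and carry no test. Just inside the limit stood ATP10B at a ratio of 4.00 between the area opaca libraries, and UPK1B and UNC5B at 4.01 each. Just outside stood PKP3 at 3.97, TFAP2A at 3.98 and LYPD6B at 3.99. TFAP2A, a classical surface ectoderm factor, was at 90.3 CPM in the ungrafted and 22.7 CPM in the node-grafted area opaca, and at 178 CPM in the non-neural ectoderm and 39.5 CPM in the neural plate. TFAP2A was at 277 CPM in the anterior and 323 CPM in the posterior preplacodal region, and before the streak at 95.9 CPM centrally and 3.49 CPM anteriorly. It was thus higher in both preplacodal regions than in the non-neural ectoderm, unlike most of the genes inside the limit.

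Most of the genes were lower in the node-grafted area opaca and the neural plate, but not absent there. The median level was 31.3 CPM in the ungrafted and 3.60 CPM in the node-grafted area opaca, and 40.4 CPM in the non-neural ectoderm and 1.61 CPM in the neural plate. In the node-grafted area opaca 95 of the 216 genes still had 5 CPM or more and 40 were under 1 CPM, while in the neural plate 61 had 5 CPM or more and 83 were under 1 CPM. In the libraries that played no part in the choice the median was 7.72 CPM in the anterior and 5.92 CPM in the posterior preplacodal region, 7.35 CPM in the central and 2.12 CPM in the anterior pre-streak epiblast. The order of these medians places both preplacodal regions and the central epiblast between the libraries chosen as high and those chosen as low, and the anterior epiblast among the low ones. Choosing genes by their extremes in some libraries itself favours a middle place for the others, so nothing is read from that place. The highest library was the non-neural ectoderm for 112 genes, the ungrafted area opaca for 94, the anterior preplacodal region for 5, the central epiblast for 4 and the anterior epiblast for 1. The non-neural ectoderm was at least 2-fold above the ungrafted area opaca for 44 of the genes, 20.4%, and at least 2-fold below it for 38, 17.6%. Among the 8779 genes with 5 CPM in both of these libraries the shares were 9.04% and 2.21%. Tissue, stage and laboratory differ together in this pair and cannot be told apart.

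**Figure D1:**
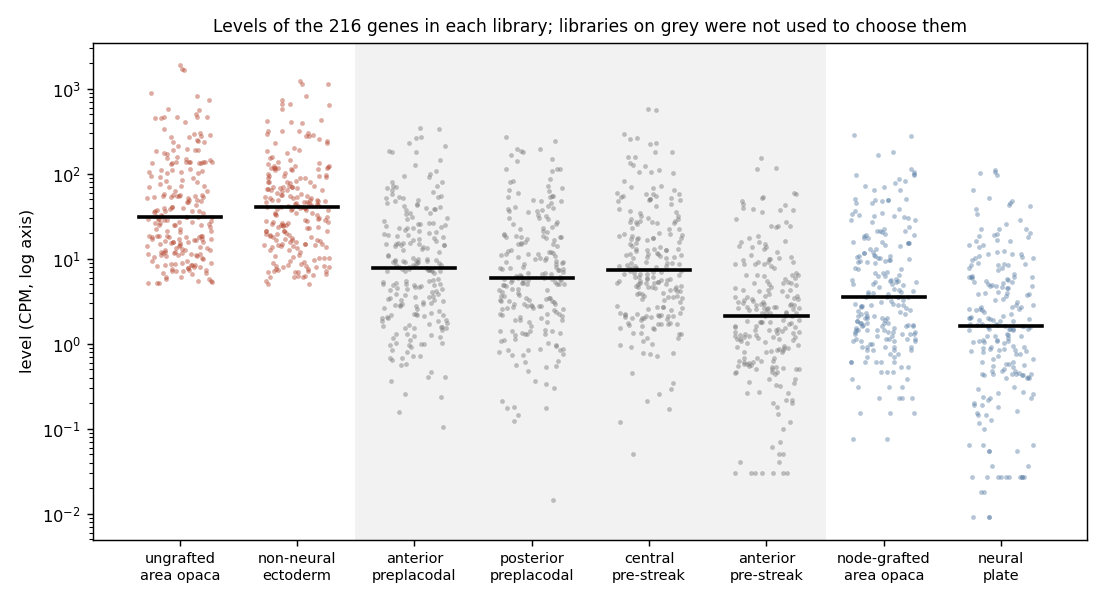
Level of each of the 216 genes (points, CPM, log axis, with a count of 0 drawn at the level of 3 counts) in each of the 8 libraries, with the median as a bar. The bars stand at 7.72, 5.92 and 7.35 CPM in the preplacodal and central pre-streak libraries and at 2.12 CPM in the anterior pre-streak epiblast, against 31.3 and 40.4 CPM in the libraries chosen as high.

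Before the primitive streak forms, most of these genes were already higher in the centre of the epiblast than at its anterior edge. Without any minimum level in this pair, 200 of the 216 genes had a ratio of central to anterior epiblast above 1, and 169 (78.2%) were at least 2-fold higher centrally against 2 lower. Among the 8779 genes with 5 CPM in both libraries chosen as high, 4660 had a ratio above 1, 5.33% were at least 2-fold higher and 3.25% at least 2-fold lower. The median log2 ratio of central to anterior epiblast was 1.79 over the 216 genes and 0.03 over those 8779. With 5 CPM required in either pre-streak library, 136 genes could be compared, of which 117 were higher centrally, 2 lower (ATP10B and BAMBI) and 17 neither, against 4.71% higher and 6.09% lower of 9312 genes overall. Genes that met 1 criterion alone leaned the same way by less. Of the 89 genes that met only the area opaca criterion, 44 (49.4%) were at least 2-fold higher centrally and 6 lower without a minimum, and of the 408 that met only the head ectoderm criterion 147 (36.0%) were higher and 28 lower. Across all 216 genes, the log2 ratio of central to anterior epiblast had a Pearson correlation of 0.497 with that of non-neural ectoderm to neural plate and of 0.244 with that of ungrafted to node-grafted area opaca. These correlations are across genes, which are not independent replicates, and they describe these libraries only.

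**Figure D2:**
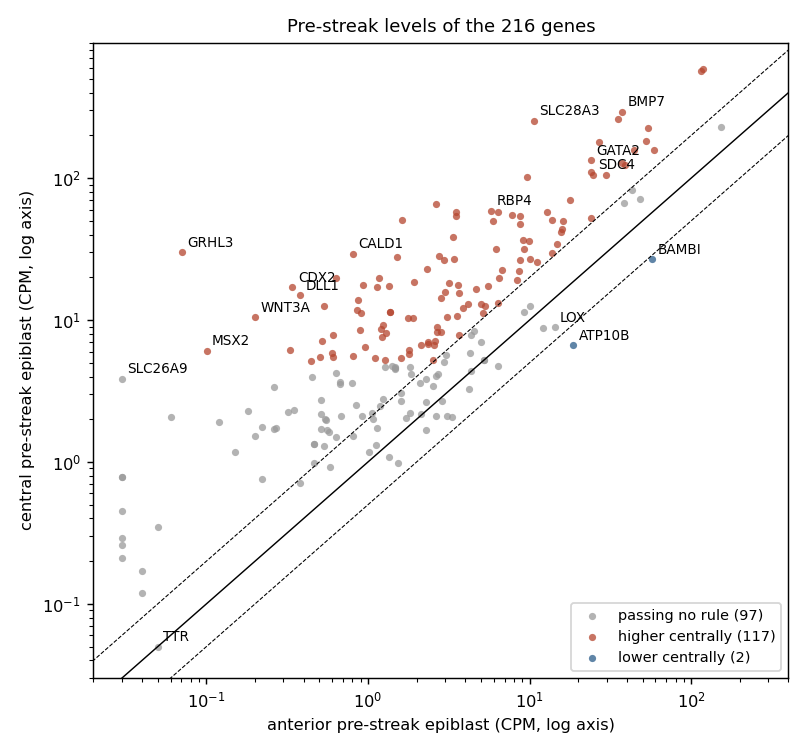
Levels of the 216 genes in the anterior (x axis) and central (y axis) pre-streak epiblast, both in CPM on log axes with a count of 0 at the level of 3 counts; the solid line marks equal levels and the dashed lines a ratio of 2. The 117 genes called higher centrally lie above the upper dashed line, and ATP10B and BAMBI are the 2 below the lower one.

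GRHL3, a grainyhead-like factor needed for surface epithelium and neural tube closure, had the steepest pre-streak difference. It was at 30.1 CPM in the central and 0.0702 CPM in the anterior pre-streak epiblast, a ratio of 429-fold (95% interval 208 to 1069). On the log2 scale this is 8.75, and with FPKM it was 6.42 with a pseudocount of 0.1 and 3.81 with a pseudocount of 1. Later it stood at 240.4 CPM in the ungrafted and 3.6 CPM in the node-grafted area opaca, at 318 CPM in the non-neural ectoderm and 0.40 CPM in the neural plate, and at 12.8 CPM in the anterior and 32.2 CPM in the posterior preplacodal region. The central epiblast thus held GRHL3 at about the posterior preplacodal level, well below either library chosen as high, and the anterior epiblast held next to none.

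Among the genes with 10 CPM in the central epiblast, CDX2, WNT3A, CALD1 and DLL1 came next by the lower bound of the pre-streak ratio. On the log2 scale the ratios of these 4 genes ran from 5.19 to 5.71, and with FPKM and a pseudocount of 1 from 2.80 to 4.49. CDX2, a caudal homeobox factor of posterior and extraembryonic tissue, was at 17 CPM in the central and 0.341 CPM in the anterior pre-streak epiblast, 49.9-fold (95% interval 35.5 to 72.3) higher centrally. It was lower in every later library, with 7.89 CPM in the ungrafted and 0.843 CPM in the node-grafted area opaca, 6.45 CPM in the non-neural ectoderm, 0.156 CPM in the anterior and 0.303 CPM in the posterior preplacodal region and 1 count in the neural plate. CALD1, the actin-binding protein caldesmon, was at 29.2 CPM in the central and 0.802 CPM in the anterior pre-streak epiblast, 36.4-fold (95% interval 29.2 to 46.1) higher centrally. Its level in the ungrafted area opaca was 295 CPM, but both preplacodal regions held only 1.03 CPM (anterior) and 2.83 CPM (posterior), near the 1.17 CPM of the neural plate. CDX2 and CALD1 were therefore central in the early epiblast and low at the later placodal border.

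BAMBI and ATP10B went the other way. BAMBI, a pseudoreceptor that damps BMP and TGF-beta signals, was at 26.8 CPM in the central and 57.3 CPM in the anterior pre-streak epiblast, 2.14-fold (95% interval 2.04 to 2.24) higher anteriorly. ATP10B, a lipid-flipping ATPase, was at 6.67 CPM in the central and 18.7 CPM in the anterior pre-streak epiblast, 2.8-fold (95% interval 2.56 to 3.06) higher anteriorly. With FPKM and a pseudocount of 1 both differences fell short of 2-fold, with log2 ratios of central to anterior epiblast of -0.98 for BAMBI and -0.89 for ATP10B. The collagen cross-linking enzyme LOX was at 14.3 CPM in the anterior epiblast against 8.87 CPM centrally, and had 0 counts in the neural plate. Its level in the ungrafted area opaca was 13.6 CPM, too close to that of the anterior epiblast to tell apart without replicates. SAMD11 was at 8.86 CPM in the central and 12.1 CPM in the anterior pre-streak epiblast and SLC41A3, a magnesium transporter family member, at 11.4 CPM in the central and 9.25 CPM in the anterior pre-streak epiblast, differences of less than 2-fold.

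A small group was close to undetected before the streak. In both pre-streak libraries 14 of the 216 genes were under 1 CPM, among them the caudal gene CDXB, KLHL31, AHNAK2, TTR, AQP5, PDGFD, TFAP2E, WNT7B and XIRP1. CDXB was at 0.779 CPM in the central epiblast and 0 counts in the anterior, then at 31.3 CPM in the ungrafted and 0.613 CPM in the node-grafted area opaca, and at 47.1 CPM in the non-neural ectoderm with 0 counts in the neural plate. AHNAK2, a large membrane-skeleton protein, was at 0.349 CPM in the central and 0.0501 CPM in the anterior pre-streak epiblast, and later at 21.4 CPM in the ungrafted area opaca and 34.6 CPM in the non-neural ectoderm. TTR, the thyroid hormone carrier transthyretin, had 5 counts in each pre-streak library and reached 34.3 CPM in the non-neural ectoderm and 7.55 CPM in the ungrafted area opaca. Their low pre-streak level defines this group, and 5 CPM in both later surface tissues was required of all 216 genes, so neither is read as a result.

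Compared with the ungrafted area opaca, the central epiblast was nonetheless the lower library for most genes. The ungrafted area opaca was at least 2-fold higher for 182 of the 216 genes and lower for 1, where 14.9% and 10.4% of all genes with 5 CPM in either library passed in these directions. The ungrafted library is one that chose the genes, so these counts are a description. In CDX2, RBP4, SNX10, DLL1 and CCDC64 the level in the central epiblast was the higher of both, and in SDC4 both levels were nearly equal. RBP4, the plasma carrier of retinol, was at 58.8 CPM in the central and 5.78 CPM in the anterior pre-streak epiblast, against 31.6 CPM in the ungrafted and 5.44 CPM in the node-grafted area opaca, 12.2 CPM in the non-neural ectoderm and 1.9 CPM in the neural plate, and 1.55 CPM in the anterior and 1.33 CPM in the posterior preplacodal region. SDC4, a cell-surface heparan sulphate proteoglycan, was at 106 CPM in the central and 24.6 CPM in the anterior pre-streak epiblast, against 105 CPM in the ungrafted area opaca, 42.2 CPM in the non-neural ectoderm and 9.87 CPM in the anterior and 6.92 CPM in the posterior preplacodal region. Both genes were higher centrally than anteriorly, and low in the preplacodal libraries. FLVCR2, a choline and haem transporter family member, was at 52.3 CPM in the central epiblast and 52.8 CPM in the ungrafted area opaca, levels that cannot be told apart without replicates.

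In the preplacodal regions these genes sat between the neural plate and the non-neural ectoderm. For 193 of the 216 genes (89.4%) both preplacodal levels lay strictly between those 2 libraries, and the median gene lay 44.6% of the way from neural plate to non-neural ectoderm on a log scale. The 408 genes that met only the head ectoderm criterion gave 371 (90.9%) and 50.3%, so this position was shared by them. At least 2-fold above the anterior preplacodal region stood 198 genes in the non-neural ectoderm, against 7.22% of all genes, and 1 gene stood below it, against 6.73%. For the posterior region the counts were 206 higher, against 8.48%, and 0 lower, against 6.93%. Of the 131 genes with 5 CPM in the anterior preplacodal region or the neural plate, 101 were at least 2-fold higher in the former (6.6% of all genes) and 1 was lower (2.86%), and of 125 such genes for the posterior region 86 were higher (5.03%) and 0 lower (2.14%). The neural plate and the non-neural ectoderm chose the genes, so nothing is read from these counts.

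**Figure D3:**
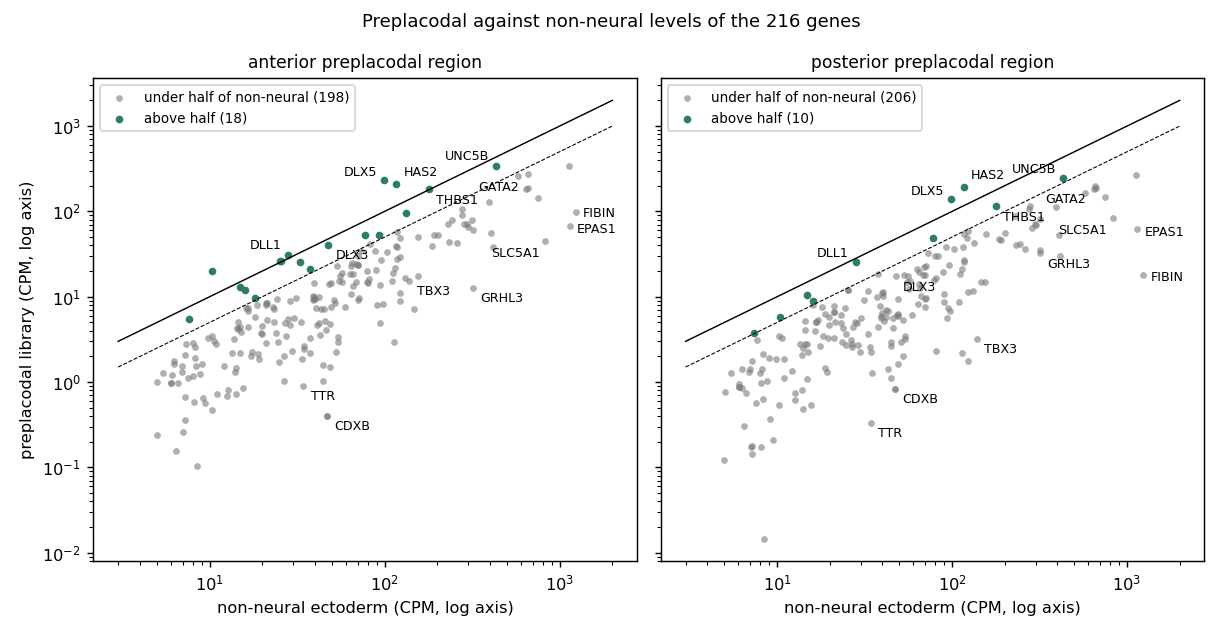
Level of each of the 216 genes in the anterior (left) and posterior (right) preplacodal region against its level in the non-neural ectoderm, in CPM on log axes; the solid line marks equal levels and the dashed line a preplacodal level 2-fold below the non-neural one. In the anterior region 18 genes and in the posterior region 10 genes lie above the dashed line (green), DLX5 and HAS2 among them in both.

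Exceptions to this middle position were few. A preplacodal level exceeded that of the non-neural ectoderm for 7 identifiers, DLX5, DLL1, HAS2, THBS1, HS3ST2 and SSPO with its other identifier. For DLL1, THBS1 and SSPO the gap was too small to tell apart without replicates. DLX5, a homeobox factor of the neural plate border and the placodes, was at 233 CPM in the anterior and 141 CPM in the posterior preplacodal region, 2.35-fold (95% interval 2.28 to 2.42) above the 99.1 CPM of the non-neural ectoderm in the anterior region. The neural plate held 13.6 CPM, the ungrafted area opaca 25.3 CPM, the node-grafted 1.69 CPM, and the pre-streak epiblast 10.4 CPM centrally and 3.08 CPM anteriorly. HAS2, which makes the matrix polymer hyaluronan, was at 212 CPM in the anterior and 195 CPM in the posterior preplacodal region, against 117 CPM in the non-neural ectoderm and 3.98 CPM in the neural plate. In the ungrafted area opaca HAS2 was higher still, at 306 CPM. HS3ST2, a heparan sulphate sulphotransferase, was at 19.8 CPM in the anterior and 5.85 CPM in the posterior preplacodal region and 10.3 CPM in the non-neural ectoderm. DLX5 and HAS2 stood high in both preplacodal regions, HS3ST2 in the anterior one. TMEM184A and PCSK1, a prohormone convertase, stayed within 2-fold of the non-neural level in both regions, with TMEM184A at 13.2 CPM in the anterior and 10.4 CPM in the posterior preplacodal region beside 14.9 CPM, and PCSK1 at 12 CPM in the anterior and 9.03 CPM in the posterior preplacodal region beside 16 CPM. At the other end, 16 genes had a preplacodal level below that of the neural plate, among them FZD10, RBP4, CALD1, SEMA3C, TTR, SNX10, FLVCR2 and WNT16.

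Most of the 216 genes differed by less than 2-fold between the anterior and the posterior preplacodal region, but a larger share passed that limit than among all genes. Without a minimum level, 26 (12.0%) were at least 2-fold higher anteriorly and 8 (3.70%) lower, where 0.581% and 0.342% of the 8779 genes with 5 CPM in both libraries chosen as high passed. Over all 17329 genes, also without a minimum, the shares were 5.23% and 3.39%, so the share lower anteriorly was near that of all genes. Of the 8779 genes, 8595 had 5 CPM in either preplacodal region, against 136 of the 216. The anterior level was above the posterior one for 147 of the 216, and for 4343 of those 8779. With 5 CPM in either region, 136 genes could be compared, with 16 higher anteriorly (11.8%), 5 lower (3.68%) and 115 neither, against 0.791% and 0.7% of all genes. The 16 include both identifiers of the SSPO pair and of the keratin LOC100858439 pair. HAND1, a basic helix-loop-helix factor of lateral and extraembryonic tissue, led them at 14.4 CPM in the anterior and 2.34 CPM in the posterior preplacodal region, 6.18-fold (95% interval 5.47 to 7.0) higher anteriorly. FIBIN, a secreted protein, was at 98.8 CPM in the anterior and 17.9 CPM in the posterior preplacodal region, 5.53-fold (95% interval 5.29 to 5.79) higher. TBX3, a T-box repressor, was at 15.4 CPM in the anterior and 3.22 CPM in the posterior preplacodal region, 4.78-fold (95% interval 4.29 to 5.32) higher, a log2 ratio of 2.26 that was 1.53 with FPKM and a pseudocount of 1. KRT14, a basal keratin, was at 23.8 CPM in the anterior and 9.28 CPM in the posterior preplacodal region, 2.56-fold (95% interval 2.39 to 2.75) higher. Higher posteriorly were FZD10, GRHL3, SLC1A3, SLC28A3 and TFAP2E, of which the WNT receptor FZD10 differed most, at 2.19 CPM in the anterior and 9.94 CPM in the posterior preplacodal region. ETS2 and SLC5A1 leaned posteriorly by less than 2-fold.

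Across stages the direction depended on which part of the early epiblast was compared. From the central epiblast to the anterior preplacodal region, 47 of 162 genes were at least 2-fold higher, against 20.8% of all genes, and 52 were lower, against 4.94%. For the posterior preplacodal region 35 of 162 were higher, against 20.1%, and 62 were lower, against 4.88%. Stage and laboratory differ together in these pairs and cannot be told apart. Scaling also matters here, because TMM factors moved the ratios of preplacodal to central libraries by -0.22 (anterior) and -0.20 (posterior) on the log2 scale, and with those factors the counts were 40 higher and 60 lower for the anterior, and 32 higher and 68 lower for the posterior region. Against the anterior epiblast, 102 of 132 genes were higher in the anterior preplacodal region (18.8% of all genes) and 7 lower (3.62%), and 95 of 128 were higher in the posterior region (18.4%) and 7 lower (3.77%). Among the genes at least 4-fold higher in both preplacodal regions than in the central epiblast were DLX3, DLX5, RARB, FLT4, FBN2, COL9A1, KRT14 and SAMD11, and among those at least 4-fold lower were CDX2, WNT3A, GATA4, GATA6, BMP7, CALD1, LOX, RBP4, SDC4, SLC28A3, GJB2, GJB6, LAMB3 and VGLL1.

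Transcription factors of the surface ectoderm were prominent among the regulators. Of a list of 36 such factors, 34 were in the table, 19 had 5 CPM in both libraries chosen as high, and 10 of these 19 were among the 216, where 2.46% of all such genes were: GRHL3, GATA2, TBX3, HAND1, DLX3, DLX5, MSX2, TFAP2E, ELF3 and VGLL1. In the pre-streak epiblast 17 of the 34 listed genes could be compared, of which 11 were at least 2-fold higher centrally and 0 lower, against 4.71% and 6.09% of all genes. GATA2, a zinc-finger factor induced by BMP, was at 341 CPM in the ungrafted and 21 CPM in the node-grafted area opaca, and at 660.0 CPM in the non-neural ectoderm and 3.26 CPM in the neural plate. GATA2 was at 272 CPM in the anterior and 196 CPM in the posterior preplacodal region, and before the streak at 134 CPM centrally and 24.1 CPM anteriorly. Among these 10 factors it had the highest length-scaled level in the ungrafted area opaca, at 186 FPKM, the authors' measure of fragments scaled by gene length and library size, and stayed high in both preplacodal regions. TBX3 was at 47 CPM in the ungrafted and 0.153 CPM in the node-grafted area opaca, the latter from 2 counts, and at 139 CPM in the non-neural ectoderm and 0.146 CPM in the neural plate. Before the streak TBX3 was at 9.29 CPM centrally and 1.23 CPM anteriorly. TBX3 was next to absent from both libraries chosen as low. DLX3, a partner of DLX5 in surface ectoderm, was at 8.23 CPM in the ungrafted area opaca with 1 count in the node-grafted, and at 47.7 CPM in the non-neural ectoderm and 1.5 CPM in the neural plate. DLX3 was at 40.5 CPM in the anterior and 17.3 CPM in the posterior preplacodal region, and before the streak at 1.63 CPM centrally and 0.572 CPM anteriorly. DLX3 was near its non-neural level in the anterior preplacodal region and low before the streak. MSX2, a homeobox repressor downstream of BMP, was at 12.8 CPM in the ungrafted and 0.843 CPM in the node-grafted area opaca, and at 89.7 CPM in the non-neural ectoderm and 0.51 CPM in the neural plate. MSX2 was at 20.5 CPM in the anterior and 10.8 CPM in the posterior preplacodal region, and before the streak at 6.06 CPM centrally and 0.10 CPM anteriorly, 60.4-fold (95% interval 32.6 to 127) higher centrally. The log2 ratio of 5.92 was 2.15 with FPKM and a pseudocount of 1. MSX2 was near absent from the anterior epiblast and intermediate in the preplacodal regions. VGLL1, a cofactor of TEAD proteins, was at 54.8 CPM in the ungrafted and 9.88 CPM in the node-grafted area opaca, and at 52.6 CPM in the non-neural ectoderm with 0 counts in the neural plate. VGLL1 was at 2.24 CPM in the anterior and 2.02 CPM in the posterior preplacodal region, and before the streak at 17.1 CPM centrally and 1.14 CPM anteriorly. VGLL1 was higher in the central epiblast than in either preplacodal region. Genes of the same list outside the 216 missed the criteria in different ways. GATA3 stood at 1.85 CPM in the ungrafted area opaca, and MSX1 at 43.1 CPM in the neural plate against 89.1 CPM in the non-neural ectoderm. TFAP2C was higher in the node-grafted (167 CPM) than in the ungrafted area opaca (81.3 CPM).

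**Figure D4:**
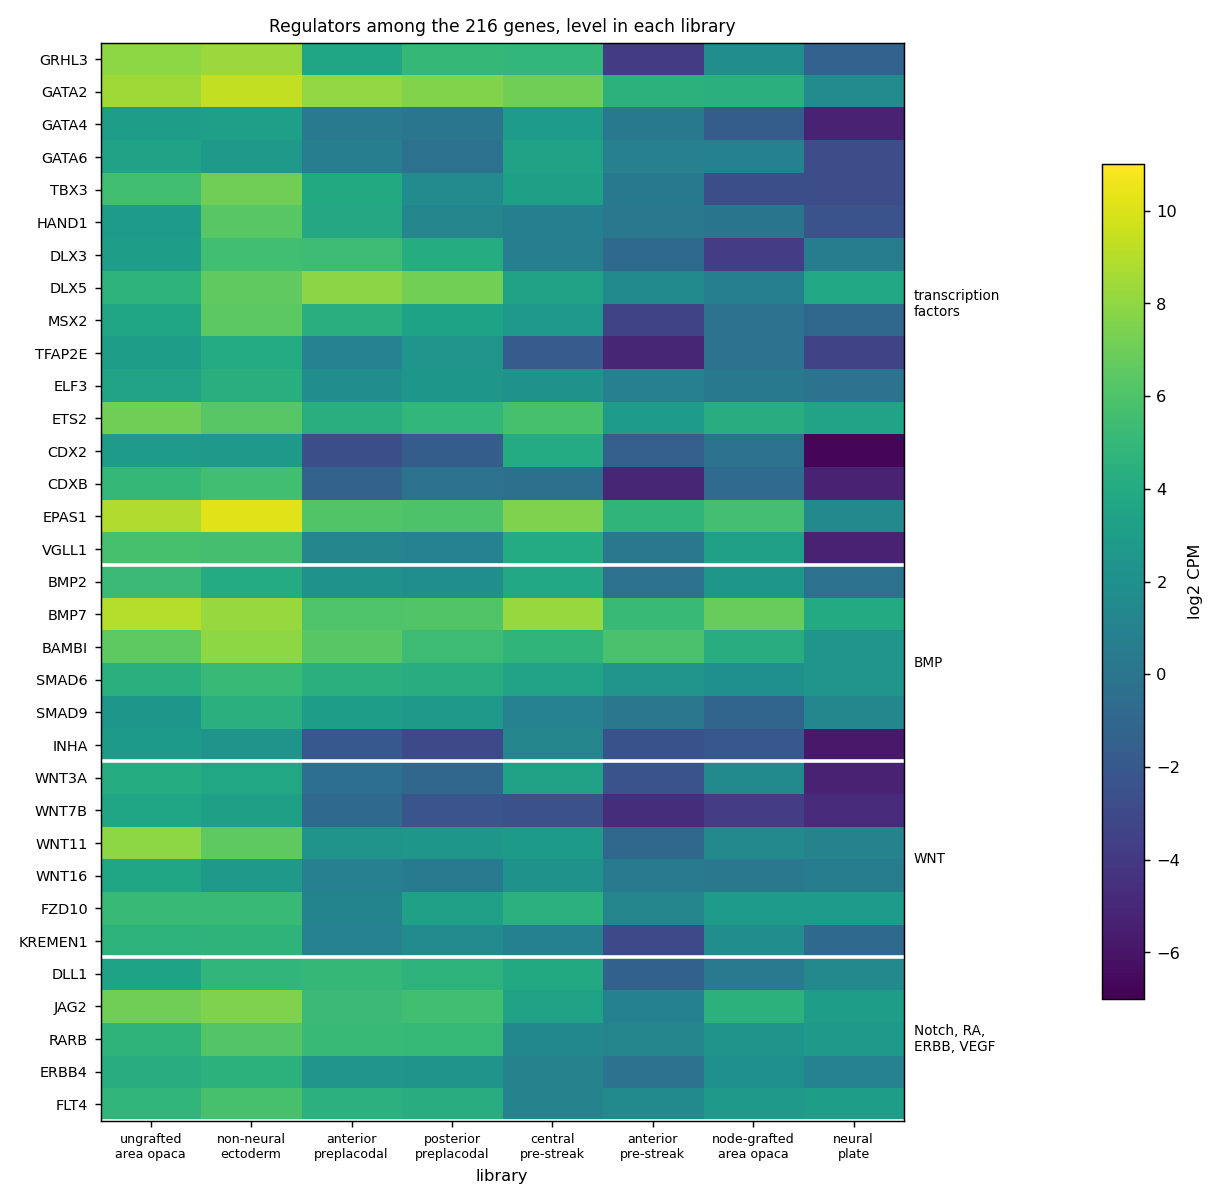
Heat map of log2 CPM in the 8 libraries (columns, ordered from those chosen as high through those not used in the choice to those chosen as low) for transcription factors and signalling genes among the 216 (rows), with a count of 0 at the level of 3 counts. DLX3, DLX5 and GATA2 stay bright in the preplacodal columns, whereas CDX2, CDXB, WNT3A and WNT7B are dark there.

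All 3 GATA genes with 5 CPM in both libraries chosen as high were among the 216. Besides GATA2 these were GATA4 and GATA6, factors best known from endoderm, heart and extraembryonic tissue. GATA4 was at 8.58 CPM in the ungrafted and 0.306 CPM in the node-grafted area opaca, and at 8.77 CPM in the non-neural ectoderm with 0 counts in the neural plate. GATA4 was at 1.25 CPM in the anterior and 1.02 CPM in the posterior preplacodal region, and before the streak at 7.55 CPM centrally and 1.21 CPM anteriorly. GATA4 was low in the node-grafted tissue, the neural plate and the preplacodal regions alike. GATA6 was at 10.6 CPM in the ungrafted and 1.84 CPM in the node-grafted area opaca, and at 6.28 CPM in the non-neural ectoderm and 0.146 CPM in the neural plate. GATA6 was at 1.64 CPM in the anterior and 0.851 CPM in the posterior preplacodal region, and before the streak at 10.3 CPM centrally and 1.76 CPM anteriorly. Both were about as high in the central epiblast as in the ungrafted area opaca and low along the placodal border. Because GATA4 and GATA6 mark endoderm, the list of endoderm and yolk genes stands beside them. It held 26 measured genes, of which 8 had 5 CPM in both libraries chosen as high. Of these 8, 5 were among the 216 (GATA4, GATA6, TTR, RBP4 and DAB2, an endocytic adaptor), where 2.46% of all such genes were. Its summed level was 712 CPM in the ungrafted and 846 CPM in the node-grafted area opaca, 703 CPM in the non-neural ectoderm, 754 CPM in the neural plate, 353 CPM in the central and 345 CPM in the anterior epiblast. SOX17 had 0 counts in all libraries but the pre-streak ones, where it was at 0.14 CPM in the central and 0.0301 CPM in the anterior pre-streak epiblast, and FOXA2 was at 1.72 CPM in the ungrafted and 4.67 CPM in the node-grafted area opaca. Within the list, APOA1 was at 100.3 CPM in the non-neural ectoderm and 37.1 CPM in the neural plate and GATA5 at 13.8 CPM in the non-neural ectoderm and 0.637 CPM in the neural plate, neither of them among the 216. Over the whole list, 10 of 14 comparable genes were at least 2-fold higher and 0 lower in the non-neural ectoderm than in the neural plate. The shares over all genes were 13.1% and 9.18%. In the ungrafted against the node-grafted area opaca 6 of 10 were higher and 1 lower, against 8.57% and 7.56% of all genes. These counts include the 5 members, which these libraries chose. The median log2 ratios of the list were 3.35 and 2.16. Most comparable genes of the list thus moved with the 216 in the libraries that chose them, whereas the summed level did not. Their part in the levels of the 216 genes was not tested.

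Ligands and modulators of BMP signalling formed another group. BMP2, a ligand, was at 39.4 CPM in the ungrafted and 5.75 CPM in the node-grafted area opaca, and at 16.5 CPM in the non-neural ectoderm and 0.865 CPM in the neural plate. BMP2 was at 4.47 CPM in the anterior and 3.95 CPM in the posterior preplacodal region, and before the streak at 13.8 CPM centrally and 0.862 CPM anteriorly, 16-fold (95% interval 12.8 to 20.1) higher centrally. BMP2 was highest in the ungrafted area opaca. BMP7, another ligand, was at 509 CPM in the ungrafted and 115 CPM in the node-grafted area opaca, and at 299.8 CPM in the non-neural ectoderm and 16.4 CPM in the neural plate. BMP7 was at 65 CPM in the anterior and 69.1 CPM in the posterior preplacodal region, and before the streak at 294 CPM centrally and 37.4 CPM anteriorly, 7.87-fold (95% interval 7.61 to 8.15) higher centrally. Both ligands were central before the streak, and BMP7 in the central epiblast was close to its level in the later non-neural ectoderm. BMP4 is not among the 216: it was at 42.7 CPM in the ungrafted and 35.3 CPM in the node-grafted area opaca, at 62.9 CPM in the non-neural ectoderm and 22.3 CPM in the neural plate, and at 71.9 CPM in the anterior and 92.1 CPM in the posterior preplacodal region. It was highest in the preplacodal regions. Feedback inhibitors followed, with SMAD6, an inhibitory SMAD, at 21 CPM in the ungrafted and 4.06 CPM in the node-grafted area opaca, and at 37.6 CPM in the non-neural ectoderm and 5.33 CPM in the neural plate. SMAD6 was at 21.1 CPM in the anterior and 18.6 CPM in the posterior preplacodal region, and before the streak at 11.2 CPM centrally and 5.18 CPM anteriorly. SMAD6 differed little between the preplacodal regions and the ungrafted area opaca. BAMBI was at 91.5 CPM in the ungrafted and 18.9 CPM in the node-grafted area opaca, at 244 CPM in the non-neural ectoderm and 5.12 CPM in the neural plate, and at 79.3 CPM in the anterior and 41.1 CPM in the posterior preplacodal region, and its pre-streak levels are given above. SMAD9, a receptor-activated SMAD, was at 21.1 CPM in the non-neural ectoderm and 2.56 CPM in the neural plate, and INHA, the inhibin alpha subunit, at 6.86 CPM in the ungrafted area opaca with 0 counts in the node-grafted. Of 32 measured genes of the BMP and TGF-beta list, 17 had 5 CPM in both libraries chosen as high, and 4 were among the 216. Of 16 genes listed as BMP targets, 12 had that level and 8 were among the 216 (BAMBI, DLX3, DLX5, GATA2, HAND1, MSX2, SMAD6 and TBX3). The share over all such genes was 2.46%. DLX3, DLX5, GATA2, HAND1, MSX2 and TBX3 are also on the surface ectoderm list, so the counts of these lists are not separate results. In the pre-streak epiblast 8 of 11 comparable BMP targets were at least 2-fold higher centrally and 1 lower, while for the list of ligands, receptors and modulators it was 4 of 20 higher and 3 lower. The shares over all genes were 4.71% higher and 6.09% lower.

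Of the 7 WNT genes with 5 CPM in both libraries chosen as high, 4 were among the 216. WNT11, a ligand of the non-canonical branch, was at 246 CPM in the ungrafted and 2.83 CPM in the node-grafted area opaca, and at 93.6 CPM in the non-neural ectoderm and 2.1 CPM in the neural plate. WNT11 was at 4.93 CPM in the anterior and 5.69 CPM in the posterior preplacodal region, and before the streak at 7.11 CPM centrally and 0.521 CPM anteriorly. WNT11 was far lower in the node-grafted tissue and low in both preplacodal regions. WNT7B was at 12.6 CPM in the ungrafted area opaca with 1 count in the node-grafted, and at 9.42 CPM in the non-neural ectoderm and 0.0364 CPM in the neural plate. WNT7B was at 0.561 CPM in the anterior and 0.209 CPM in the posterior preplacodal region, and before the streak at 0.17 CPM centrally and 0.0401 CPM anteriorly. WNT7B was near absent outside both libraries chosen as high. WNT3A, a canonical ligand, was at 17.3 CPM in the ungrafted and 2.91 CPM in the node-grafted area opaca, and at 14.1 CPM in the non-neural ectoderm and 0.0273 CPM in the neural plate. WNT3A was at 0.727 CPM in the anterior and 0.483 CPM in the posterior preplacodal region, and before the streak at 10.5 CPM centrally and 0.201 CPM anteriorly, 52.4-fold (95% interval 33.8 to 86.2) higher centrally. The 3 ligands were low along the placodal border, and before the streak only WNT3A passed 10 CPM, in the central epiblast. WNT16 was at 11.7 CPM in the ungrafted and 1.15 CPM in the node-grafted area opaca, and at 6.27 CPM in the non-neural ectoderm and 1.47 CPM in the neural plate. Before the streak WNT16 was at 4.76 CPM centrally and 1.4 CPM anteriorly. WNT16 did not reach 5 CPM outside both libraries chosen as high. The receptor FZD10 was at 36.8 CPM in the ungrafted and 7.58 CPM in the node-grafted area opaca, and at 37.4 CPM in the non-neural ectoderm and 7.29 CPM in the neural plate. Before the streak FZD10 was at 22.8 CPM centrally and 2.32 CPM anteriorly. FZD10 was well represented in the central epiblast. KREMEN1, a co-receptor of DKK inhibitors, was at 25.1 CPM in the ungrafted and 3.6 CPM in the node-grafted area opaca, and at 26.6 CPM in the non-neural ectoderm and 0.555 CPM in the neural plate. Before the streak KREMEN1 was at 1.9 CPM centrally and 0.12 CPM anteriorly. KREMEN1 was low throughout the early epiblast. These 6 were the members among 42 measured WNT ligands, receptors and modulators, and over that whole list 6 of 24 comparable genes were higher centrally before the streak and 4 lower, against 4.71% and 6.09% of all genes. Of 17 measured WNT targets, 3 identifiers were among the 216, CDX2, CDX4 and TBX3. None of 31 measured genes of the FGF list was, but only 11 of them had 5 CPM in both libraries chosen as high. As 2.46% of all such genes were among the 216, nothing is read from this absence. Of the 16 genes of the FGF list comparable in the area opaca, 12 were at least 2-fold lower in the ungrafted than in the node-grafted library, against 7.56% of all genes. Those libraries chose the members, so this count is a description.

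The Notch ligands DLL1 and JAG2 were the members of an 18-gene Notch list. DLL1 was at 11 CPM in the ungrafted and 1.38 CPM in the node-grafted area opaca, and at 28.1 CPM in the non-neural ectoderm and 2.84 CPM in the neural plate. DLL1 was at 31.2 CPM in the anterior and 25.5 CPM in the posterior preplacodal region, and before the streak at 14.9 CPM centrally and 0.381 CPM anteriorly, 39.2-fold (95% interval 28.4 to 55.7) higher centrally. DLL1 was next to absent from the anterior epiblast. JAG2 was at 135 CPM in the ungrafted and 23.5 CPM in the node-grafted area opaca, and at 186 CPM in the non-neural ectoderm and 8.39 CPM in the neural plate. JAG2 was at 39.3 CPM in the anterior and 47.5 CPM in the posterior preplacodal region, and before the streak at 10.3 CPM centrally and 1.91 CPM anteriorly. The highest levels of DLL1, in the anterior preplacodal region and the non-neural ectoderm, were too close to tell apart without replicates. JAG2 was highest in the non-neural ectoderm. The retinoic acid receptor RARB was at 26.1 CPM in the ungrafted and 5.06 CPM in the node-grafted area opaca, and at 72.9 CPM in the non-neural ectoderm and 6.33 CPM in the neural plate. RARB was at 34.3 CPM in the anterior and 32.9 CPM in the posterior preplacodal region, and before the streak at 2.64 CPM centrally and 2.3 CPM anteriorly, and so was low throughout the early epiblast. ERBB4, a receptor of neuregulins, was at 18.7 CPM in the ungrafted and 4.06 CPM in the node-grafted area opaca, and at 23.2 CPM in the non-neural ectoderm and 1.94 CPM in the neural plate. Before the streak ERBB4 was at 2.12 CPM centrally and 0.923 CPM anteriorly. ERBB4 was low in the node-grafted tissue, the neural plate and the early epiblast. EPAS1, a hypoxia-inducible factor, was at 467 CPM in the ungrafted and 49.9 CPM in the node-grafted area opaca, and at 1142 CPM in the non-neural ectoderm and 2.84 CPM in the neural plate. EPAS1 was at 67.6 CPM in the anterior and 62.2 CPM in the posterior preplacodal region, and before the streak at 181 CPM centrally and 27 CPM anteriorly. EPAS1 was most abundant in the non-neural ectoderm, and higher in the central epiblast than in either preplacodal region. ETS2 was at 138 CPM in the ungrafted and 18.6 CPM in the node-grafted area opaca, and at 79.7 CPM in the non-neural ectoderm and 11.5 CPM in the neural plate. Before the streak ETS2 was at 55 CPM centrally and 7.76 CPM anteriorly. ETS2 was highest in the ungrafted area opaca.

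FLT4, a receptor of the VEGF family, was at 29.2 CPM in the ungrafted and 6.21 CPM in the node-grafted area opaca, and at 53.1 CPM in the non-neural ectoderm and 8.35 CPM in the neural plate. FLT4 was at 22.8 CPM in the anterior and 18.2 CPM in the posterior preplacodal region, and before the streak at 2.12 CPM centrally and 3.08 CPM anteriorly. FLT4 was higher in both preplacodal regions than in either part of the early epiblast. It was the only member among 22 measured blood and endothelium genes, whose summed level was 54.1 CPM in the ungrafted and 23.6 CPM in the node-grafted area opaca, and 177 CPM in the non-neural ectoderm against 23.1 CPM in the neural plate. The defining endothelial genes KDR at 32.8 CPM in the non-neural ectoderm and 1.65 CPM in the neural plate, CDH5 at 8.31 CPM in the non-neural ectoderm and 0.0819 CPM in the neural plate and LMO2 at 19 CPM in the non-neural ectoderm and 2.85 CPM in the neural plate moved with the head ectoderm comparison, and their part in the levels of the 216 genes there was not tested. In the area opaca CDH5 had 0 counts in both libraries. In the pre-streak epiblast the sum of this list was 33.0 CPM centrally and 26.7 CPM anteriorly.

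Carriers and channels formed another group. Of 151 solute carrier genes with 5 CPM in both libraries chosen as high, 11 (7.28%) were among the 216, where 2.46% of all such genes were. SLC5A1, the sodium-glucose cotransporter, had one of the highest length-scaled levels of all the genes, 661 FPKM in the ungrafted area opaca. It was at 1898 CPM in the ungrafted and 179.9 CPM in the node-grafted area opaca, and at 826 CPM in the non-neural ectoderm and 1.04 CPM in the neural plate. SLC5A1 was at 45.3 CPM in the anterior and 83.1 CPM in the posterior preplacodal region, and before the streak at 57.4 CPM centrally and 3.5 CPM anteriorly. SLC5A1 was higher in the posterior than in the anterior preplacodal region and scarce in the neural plate. SLC1A3, a glutamate transporter, was at 737 CPM in the ungrafted and 104 CPM in the node-grafted area opaca, and at 123 CPM in the non-neural ectoderm and 0.228 CPM in the neural plate. SLC1A3 was at 29.2 CPM in the anterior and 59.3 CPM in the posterior preplacodal region, and before the streak at 54.1 CPM centrally and 3.53 CPM anteriorly. SLC1A3 had the same order of the preplacodal regions. SLC28A3, a concentrative nucleoside transporter, was at 825 CPM in the ungrafted and 168 CPM in the node-grafted area opaca, and at 147 CPM in the non-neural ectoderm and 0.573 CPM in the neural plate. SLC28A3 was at 7.15 CPM in the anterior and 15.1 CPM in the posterior preplacodal region, and before the streak at 254 CPM centrally and 10.6 CPM anteriorly. All 3 nutrient carriers kept more than 100 CPM in the node-grafted area opaca, were at about 1 CPM or less in the neural plate, and were higher centrally than anteriorly before the streak. SLC26A9, an anion transporter, was at 139.8 CPM in the ungrafted and 2.22 CPM in the node-grafted area opaca, at 34.6 CPM in the non-neural ectoderm and 0.273 CPM in the neural plate, and at 3.85 CPM in the central epiblast with 3 counts in the anterior. Its relative SLC26A4 was at 26.3 CPM in the ungrafted and 1.23 CPM in the node-grafted area opaca, and at 19.8 CPM in the non-neural ectoderm and 1.58 CPM in the neural plate. Before the streak SLC26A4 was at 3.53 CPM centrally and 0.672 CPM anteriorly. Both anion carriers were low before the streak. SLC9A3, a sodium-proton exchanger, was at 27.4 CPM in the ungrafted and 5.36 CPM in the node-grafted area opaca and at 8.1 CPM in the non-neural ectoderm and 0.0273 CPM in the neural plate, and SLC5A9, another glucose and mannose cotransporter, at 5.21 CPM in the ungrafted and 0.919 CPM in the node-grafted area opaca and at 18.9 CPM in the non-neural ectoderm and 0.664 CPM in the neural plate. SLC9A3 was higher in the ungrafted area opaca and SLC5A9 in the non-neural ectoderm. The water channel AQP5 was at 39.3 CPM in the ungrafted and 1.3 CPM in the node-grafted area opaca, at 7.19 CPM in the non-neural ectoderm with 1 count in the neural plate, and under 1 CPM in all 4 preplacodal and pre-streak libraries. ATP1B1, the beta subunit of the sodium pump, was at 461 CPM in the ungrafted and 71 CPM in the node-grafted area opaca, and at 317 CPM in the non-neural ectoderm and 43.1 CPM in the neural plate. ATP1B1 was at 79.5 CPM in the anterior and 80.8 CPM in the posterior preplacodal region, and before the streak at 71.7 CPM centrally and 48.2 CPM anteriorly. ATP1B1 was thus present in every tissue and differed by less than 2-fold within the preplacodal and within the pre-streak pair. TRPM7, a magnesium and calcium channel with a kinase domain, was at 1668 CPM in the ungrafted and 279 CPM in the node-grafted area opaca, and at 644 CPM in the non-neural ectoderm and 102 CPM in the neural plate. Before the streak TRPM7 was at 571 CPM centrally and 116 CPM anteriorly, counts it shares with the microRNA entry. TRPM7 was present in every library. CASR, the calcium-sensing receptor, was at 37.9 CPM in the ungrafted and 1.76 CPM in the node-grafted area opaca, and at 24.8 CPM in the non-neural ectoderm and 0.928 CPM in the neural plate. Before the streak CASR was at 5.11 CPM centrally and 0.441 CPM anteriorly. CASR was highest in the ungrafted area opaca.

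**Figure D5:**
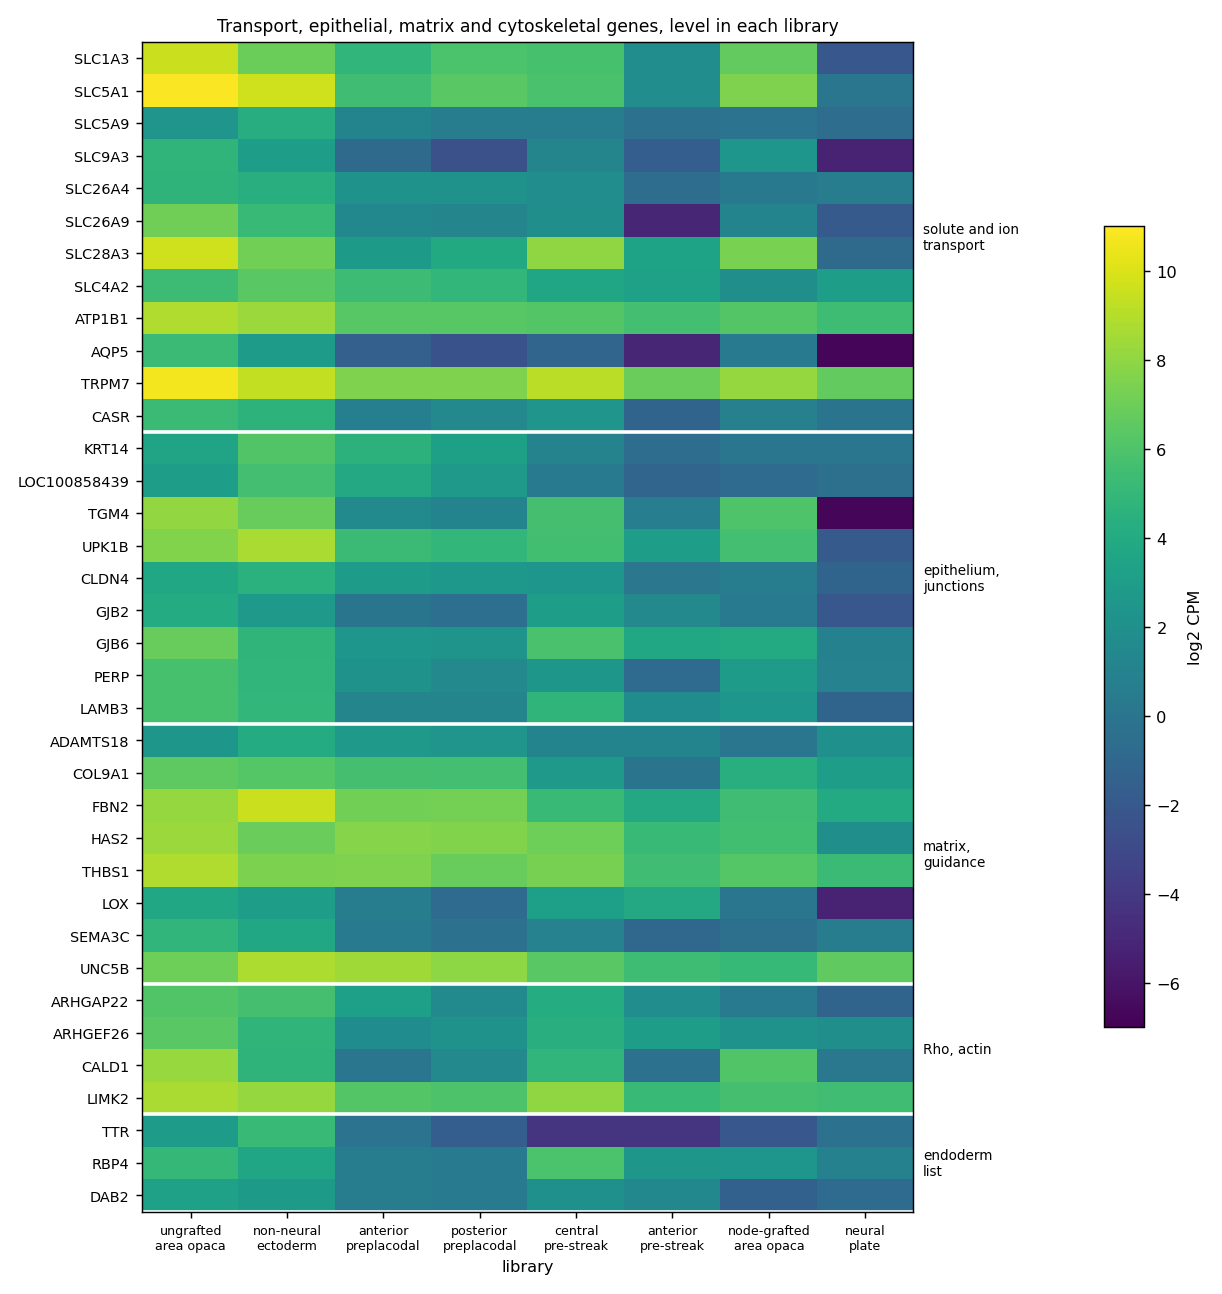
Heat map of log2 CPM in the 8 libraries (columns, in the same order as for the regulators) for transport, epithelial, matrix, cytoskeletal and endoderm-list genes among the 216 (rows), with a count of 0 at the level of 3 counts. SLC28A3, RBP4 and TRPM7 are bright in the central pre-streak column, and HAS2, THBS1 and UNC5B in the preplacodal columns.

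Epithelial structure was represented by keratins, a uroplakin, junction proteins and a laminin. KRT14 was at 11.3 CPM in the ungrafted and 1.07 CPM in the node-grafted area opaca, and at 70.2 CPM in the non-neural ectoderm and 1.06 CPM in the neural plate. Before the streak KRT14 was at 2.11 CPM centrally and 0.682 CPM anteriorly. KRT14 was low in the early epiblast. The neighbouring keratin LOC100858439, named KRT17 in RefSeq, was at 8.51 CPM in the ungrafted and 0.613 CPM in the node-grafted area opaca, and at 49.3 CPM in the non-neural ectoderm and 0.765 CPM in the neural plate. LOC100858439 was at 14.4 CPM in the anterior and 6.23 CPM in the posterior preplacodal region, and before the streak at 1.34 CPM centrally and 0.461 CPM anteriorly. Keratin genes are close relatives and the way of counting shared reads is not known, so the split between them is uncertain. Both were highest in the non-neural ectoderm, intermediate in the anterior preplacodal region and low before the streak. The simple keratins KRT19 and KRT8 were not members: KRT19 was at 1580.2 CPM in the ungrafted and 526 CPM in the node-grafted area opaca and at 1524 CPM in the non-neural ectoderm and 220.3 CPM in the neural plate, and KRT8 at 451 CPM in the ungrafted and 305 CPM in the node-grafted area opaca. UPK1B, a tetraspanin of the urothelial plaque, was at 197 CPM in the ungrafted and 49.2 CPM in the node-grafted area opaca, and at 416 CPM in the non-neural ectoderm and 0.264 CPM in the neural plate. UPK1B was at 38.6 CPM in the anterior and 30.4 CPM in the posterior preplacodal region, and before the streak at 47.3 CPM centrally and 8.69 CPM anteriorly. UPK1B was scarce in the neural plate and present in all other libraries. TGM4, a transglutaminase, was at 274 CPM in the ungrafted and 64.5 CPM in the node-grafted area opaca, and at 114 CPM in the non-neural ectoderm with 1 count in the neural plate. TGM4 was at 2.98 CPM in the anterior and 2.16 CPM in the posterior preplacodal region, and before the streak at 51 CPM centrally and 1.62 CPM anteriorly. TGM4 was higher in the central epiblast than in either preplacodal region.

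Among junction genes, the gap junction subunits GJB6 and GJB2, neighbours in the RefSeq gene order of the assembly GRCg7b, moved together. GJB6 was at 113 CPM in the ungrafted and 15.8 CPM in the node-grafted area opaca, and at 28 CPM in the non-neural ectoderm and 1.87 CPM in the neural plate. GJB6 was at 5.47 CPM in the anterior and 5.07 CPM in the posterior preplacodal region, and before the streak at 58 CPM centrally and 12.9 CPM anteriorly. GJB6 was low in the preplacodal regions. GJB2 was at 16.6 CPM in the ungrafted and 1.38 CPM in the node-grafted area opaca, and at 6.61 CPM in the non-neural ectoderm and 0.237 CPM in the neural plate. GJB2 was at 0.987 CPM in the anterior and 0.736 CPM in the posterior preplacodal region, and before the streak at 8.29 CPM centrally and 2.84 CPM anteriorly. Both were higher in the ungrafted area opaca than in the non-neural ectoderm, with the central epiblast next after the area opaca. The tight junction protein CLDN4 was at 13 CPM in the ungrafted and 1.46 CPM in the node-grafted area opaca, and at 23.1 CPM in the non-neural ectoderm and 0.428 CPM in the neural plate. CLDN4 was at 7.5 CPM in the anterior and 6.04 CPM in the posterior preplacodal region, and before the streak at 5.37 CPM centrally and 1.1 CPM anteriorly. CLDN4 stood at like levels in the central epiblast and the preplacodal regions. PERP, a desmosomal tetraspan protein, was at 54.3 CPM in the ungrafted and 7.81 CPM in the node-grafted area opaca, and at 29 CPM in the non-neural ectoderm and 1.94 CPM in the neural plate. Before the streak PERP was at 5.88 CPM centrally and 0.602 CPM anteriorly. PERP was low outside both libraries chosen as high. LAMB3, a chain of the basement membrane laminin of skin, was at 55.5 CPM in the ungrafted and 5.52 CPM in the node-grafted area opaca, and at 29.7 CPM in the non-neural ectoderm and 0.446 CPM in the neural plate. LAMB3 was at 2.31 CPM in the anterior and 2.24 CPM in the posterior preplacodal region, and before the streak at 27.1 CPM centrally and 3.4 CPM anteriorly. LAMB3 was near its non-neural level in the central epiblast. Of 37 measured junction genes 4 were members, and of 40 collagens, laminins and integrins 1 was. Among the 182 members found as coding genes in that RefSeq order, 6 pairs were direct neighbours: FAM3C and WNT16, GJB6 and GJB2, WISP1 and NDRG1, LAMB3 and G0S2, KRT14 and KRT17, and VEPH1 and PTX3. The number of such pairs in other gene sets was not counted, so no clustering is read from them.

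Secreted and matrix proteins formed a further group. FIBIN had the highest length-scaled level of the genes with Ensembl identifiers in the ungrafted area opaca, 1274 FPKM. It was at 889 CPM in the ungrafted and 49.4 CPM in the node-grafted area opaca, and at 1235 CPM in the non-neural ectoderm and 1.73 CPM in the neural plate. Before the streak FIBIN was at 224 CPM centrally and 54 CPM anteriorly. FIBIN was highest in the non-neural ectoderm. FBN2, a fibrillin, was at 279 CPM in the ungrafted and 45.4 CPM in the node-grafted area opaca, and at 750.0 CPM in the non-neural ectoderm and 16.3 CPM in the neural plate. FBN2 was at 144 CPM in the anterior and 148 CPM in the posterior preplacodal region, and before the streak at 34.5 CPM centrally and 14.8 CPM anteriorly. FBN2 was likewise highest in the non-neural ectoderm. COL9A1, a collagen chain, was at 93.8 CPM in the ungrafted and 19.3 CPM in the node-grafted area opaca, and at 77.4 CPM in the non-neural ectoderm and 8.52 CPM in the neural plate. COL9A1 was at 52.7 CPM in the anterior and 48.4 CPM in the posterior preplacodal region, and before the streak at 6.41 CPM centrally and 0.963 CPM anteriorly. Both matrix genes were higher in the preplacodal regions than in either part of the early epiblast. THBS1, thrombospondin, was at 472 CPM in the ungrafted and 77.7 CPM in the node-grafted area opaca, and at 178 CPM in the non-neural ectoderm and 38.9 CPM in the neural plate. THBS1 was at 182 CPM in the anterior and 114 CPM in the posterior preplacodal region, and before the streak at 159 CPM centrally and 44.6 CPM anteriorly. THBS1 reached its non-neural level in the anterior preplacodal region. ADAMTS18, a secreted protease, was at 5.83 CPM in the ungrafted and 1.07 CPM in the node-grafted area opaca, and at 16.6 CPM in the non-neural ectoderm and 4.03 CPM in the neural plate. Before the streak ADAMTS18 was at 2.18 CPM centrally and 2.13 CPM anteriorly. ADAMTS18 was low before the streak. PDGFD, a growth factor, was at 9.33 CPM in the ungrafted and 0.23 CPM in the node-grafted area opaca and at 12.7 CPM in the non-neural ectoderm and 0.0637 CPM in the neural plate, and was under 1 CPM in all other libraries. Of 49 measured guidance and adhesion genes, 32 had 5 CPM in both libraries chosen as high. Of these 32, 2 were members, the netrin receptor UNC5B and the semaphorin SEMA3C, where 2.46% of all such genes were. UNC5B was at 133 CPM in the ungrafted and 33.1 CPM in the node-grafted area opaca, and at 433 CPM in the non-neural ectoderm and 95.7 CPM in the neural plate. UNC5B was at 343 CPM in the anterior and 243 CPM in the posterior preplacodal region, and before the streak at 82.6 CPM centrally and 43.3 CPM anteriorly. UNC5B was higher in both preplacodal regions than in the ungrafted area opaca. SEMA3C was at 29 CPM in the ungrafted and 0.766 CPM in the node-grafted area opaca, and at 13.9 CPM in the non-neural ectoderm and 1.5 CPM in the neural plate. SEMA3C was at 1.3 CPM in the anterior and 0.808 CPM in the posterior preplacodal region, and before the streak at 2.02 CPM centrally and 0.542 CPM anteriorly. UNC5B was prominent in every head ectoderm library, whereas SEMA3C was low in all but the ungrafted area opaca and the non-neural ectoderm.

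Regulators of the actin cytoskeleton were also present, 3 of 30 measured on that list (ARHGAP22, ARHGEF26 and CALD1). ARHGAP22, a GTPase-activating protein for Rac, was at 70.1 CPM in the ungrafted and 1.3 CPM in the node-grafted area opaca, and at 51.4 CPM in the non-neural ectoderm and 0.437 CPM in the neural plate. ARHGAP22 was at 9.06 CPM in the anterior and 2.97 CPM in the posterior preplacodal region, and before the streak at 17.5 CPM centrally and 3.61 CPM anteriorly. ARHGAP22 was near absent from the node-grafted tissue and the neural plate. ARHGEF26, an exchange factor for RhoG, was at 85.4 CPM in the ungrafted and 4.6 CPM in the node-grafted area opaca, and at 27.3 CPM in the non-neural ectoderm and 3.97 CPM in the neural plate. ARHGEF26 was at 3.44 CPM in the anterior and 4.43 CPM in the posterior preplacodal region, and before the streak at 19.2 CPM centrally and 8.33 CPM anteriorly. ARHGEF26 was low in both preplacodal regions. LIMK2, a kinase that inactivates cofilin, was at 413 CPM in the ungrafted and 50.6 CPM in the node-grafted area opaca, and at 286 CPM in the non-neural ectoderm and 45.5 CPM in the neural plate. LIMK2 was at 71 CPM in the anterior and 64 CPM in the posterior preplacodal region, and before the streak at 262 CPM centrally and 35.1 CPM anteriorly. All 3 were at least 2-fold higher in the central than in the anterior epiblast. NDRG1, a stress-responsive protein, was at 568 CPM in the ungrafted and 97.7 CPM in the node-grafted area opaca, and at 578 CPM in the non-neural ectoderm and 18.8 CPM in the neural plate. NDRG1 was at 261 CPM in the anterior and 166 CPM in the posterior preplacodal region, and before the streak at 101 CPM centrally and 9.6 CPM anteriorly. NDRG1 was lowest in the anterior epiblast. FRMD1, a FERM domain protein, was at 581 CPM in the ungrafted and 87.6 CPM in the node-grafted area opaca, and at 1129 CPM in the non-neural ectoderm and 110.3 CPM in the neural plate. FRMD1 was at 338 CPM in the anterior and 269 CPM in the posterior preplacodal region, and before the streak at 159 CPM centrally and 58.8 CPM anteriorly, and so remained above 50 CPM in every library. None of the measured genes of the mesoderm (22), node and axial mesoderm (11), neural plate (26), early epiblast (15) or housekeeping (15) lists was among the 216. In this order, only 0, 0, 3, 10 and 14 of them had 5 CPM in both libraries chosen as high. As 2.46% of all such genes were among the 216, nothing is read from these absences. The preplacodal list of 22 measured genes, 7 of them at that level, contributed 2, DLX3 and DLX5.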

How the data were processed

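Messenger RNA of 8 chick tissues was sequenced in 1 library each. Reads were aligned with TopHat2 to galGal4, per the submitters' processing notes. The authors deposited whole-number counts for 17329 genes, and FPKM, which they had scaled by gene length and library size. How reads were assigned to genes, on which annotation and with which strand setting is not given in the sources used here. The members, gene lists and tests were chosen with earlier results of these data known.

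Counts were divided by the library total and multiplied to CPM, with a count of 0 set to 3 counts in ratios. A ratio of 0 counts to another library is therefore a lower bound. A gene was called higher or lower at a ratio of 2 with 5 CPM in the higher library. Intervals are exact Clopper-Pearson intervals of the binomial conditional on the summed counts. FPKM was used only for levels between genes and as an alternative unit, for the 209 Ensembl members, where each of the 8 columns correlated best with the counts of its own library (r from 0.939 to 0.988). FPKM of RefSeq genes was not used. TMM factors came from edgeR 4.0.16 and size factors from DESeq2 1.42.0 in R 4.3.3, and neither tool's test was used. Other calculations used Python 3.11.15, numpy 2.4.6, pandas 2.3.3 and scipy 1.17.1, figures matplotlib 3.10.9, and the calculations were checked on simulated data.

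Of 712 listed genes in 25 lists 644 were matched, 21 of them through a RefSeq synonym or accession. Genes with a symbol were named if they belonged to a list, or were among the 10 with the largest smaller ratio of both criteria, or the 10 with the highest FPKM in the ungrafted area opaca. Also named were the 5 highest and 5 lowest ratios within the pre-streak and within the preplacodal pair, by the interval bound nearest to 1 with 10 CPM in the higher library. Further named genes were the 5 highest in each of those 4 libraries relative to the higher of ungrafted area opaca and non-neural ectoderm, the 3 on either side of the limit, and the 5 highest in non-neural ectoderm among those under 1 CPM before the streak. EPAS1, SMAD9, INHA, TRPM7, CASR, FBN2, COL9A1, THBS1, LIMK2, the muscle-associated genes and those named only as part of a count or of a pair were chosen after their values were seen. Sequences and promoter motifs were not analysed here.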

Additional observations from a re-analysis of the deposited data

How the results depend on the processing

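No paired analysis was possible because each group held 1 library, and leaving out a replicate was not possible for the same reason. TMM factors, DESeq2 size factors, Ensembl identifiers only and shared counts counted once each kept every count of genes within 1.5 times, and a count of 0 set to 1, tried for the number of members only, left 216. No called ratio of a single gene changed sign under the scalings and FPKM settings tried for it. The counts follow, in the order higher and lower in the central than in the anterior epiblast, higher and lower in the anterior than in the posterior preplacodal region, and higher and lower in the anterior and then the posterior preplacodal region than in the central epiblast. A minimum of 1 CPM gave 322 members. Its counts were 187 and 4, 32 and 8, 78 and 80, and 61 and 98 genes, with a median log2 pre-streak ratio of 1.73. A minimum of 20 CPM left 118 members and gave 51 and 1, 3 and 2 (median 0.12), 19 and 26, and 12 and 24. FPKM with a pseudocount of 1 left 128 members, 125 of them shared, and gave 75 and 1 (median 1.84), 5 and 2, 18 and 42, and 9 and 46. FPKM with a pseudocount of 0.1 left 156 members and gave 6 and 3 between the preplacodal regions. Against the central epiblast it gave 24 and 49 for the anterior and 14 and 53 for the posterior preplacodal region. With both FPKM settings the excess of lower genes in the anterior preplacodal region was thus larger than in the 47 and 52 reported. A membership ratio of 2 gave 577 members, 244 and 7 (median 1.22), 10 lower anteriorly than posteriorly (median 0.15), 140 and 121, and 113 and 140, so that more genes were higher than lower in the anterior preplacodal region than in the central epiblast, the opposite of the 47 and 52 reported. A ratio of 8 gave 91 members, 41 and 0 (median 2.91), 10 and 2 (median 0.35), 17 and 25, and 13 and 31. A call ratio of 4 gave 71 and 0, 4 and 1, 22 and 28, and 17 and 32. Without a minimum in the pair compared, an alternative chosen after seeing the data, 26 genes were higher and 8 lower in the anterior preplacodal region. The minimum and the ratios change the number of genes tested or the limit itself, and for FPKM the cause was not tested. Of the ratios of single genes tried, 87 moved beyond their interval with FPKM and a pseudocount of 1 and 57 did not. With a pseudocount of 0.1, 29 moved and 115 did not. With 1 library per group, spread between embryos is unknown, and in the area opaca libraries 3 counts are about 0.2 CPM, so low members there are imprecise.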

Other observations

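Several of the 216 genes are best known from striated or smooth muscle in other vertebrates, a group noticed after the values were seen. ALPK3, a muscle kinase, was at 133 CPM in the ungrafted and 7.66 CPM in the node-grafted area opaca, at 123 CPM in the non-neural ectoderm and 2.74 CPM in the neural plate, and at 38.7 CPM in the central and 3.34 CPM in the anterior epiblast. CSRP2, a LIM protein of smooth muscle, was at 174 CPM and 30.2 CPM in the area opaca libraries, at 407 CPM and 5.52 CPM in the non-neural ectoderm and the neural plate, and at 50.5 CPM and 13.8 CPM in the central and anterior epiblast. KLHL31 was at 44.5 CPM in the non-neural ectoderm and 7.20 CPM in the ungrafted area opaca, and XIRP1 at 11 CPM and 8.85 CPM in these libraries. NEXN, RBM20 and FILIP1 complete the group. The muscle regulators MYOD1, MYF5, MYOG and MYF6 were at most 0.31 CPM in every library. Other defining muscle genes were higher in the non-neural ectoderm than in the neural plate. Among them were TNNT2 at 67.5 CPM and 0.81 CPM, MYH7 at 32.5 CPM and 2.24 CPM and DES at 9.14 CPM and 0.564 CPM. MYL4 at 8.96 CPM and 25.2 CPM and RYR2 at 0.306 CPM and 4.10 CPM went the other way. NKX2-5 reached 12.5 CPM in the anterior preplacodal region. The summed level of 18 defining muscle genes was 739 CPM in the ungrafted area opaca, of which MYL3 made up 596 CPM, and 392 CPM in the node-grafted, and 424 CPM in the non-neural ectoderm against 171 CPM in the neural plate. Their part in the levels of these members was not tested.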
